A study of Zea mays with 12 samples.

Results

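Whole maize seeds of the *ereb92-6* mutant were compared with wild-type seeds at 6 hours after imbibition (6 HAI), using 6 of the 12 RNA-seq libraries of the series. These were the 3 libraries labelled *ereb92*_6h and the 3 labelled KN5585_6h, taken by their labels. KN5585 is the inbred line that was transformed, and *ereb92-6* is 1 CRISPR-Cas9 knockout line of the transcription factor gene *ZmEREB92*. No source used here says whether the mutant seeds were uniform outside the edited gene. Effects of the edit and of other differences between the seed lots cannot be told apart with 1 line, and 1 dry mutant library sided with the wild type at 16 of the genes described below. The other 6 libraries, KN5585_0h and *ereb92*_0h, are dry seeds of the same 2 genotypes and were not used by the test at 6 HAI. Of 55529 genes in the table, 23066 had enough counts at 6 HAI to be tested. The study calls the libraries of a group biological replicates, but no source used here says whether they came from separate ears or seed lots, so the p-values measure the spread between these libraries. A maize seed holds an embryo, an aleurone layer and starchy endosperm, and in bulk seed fewer cells of a type and less RNA per cell cannot be told apart.

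A dry seed carries stored RNA and starts transcription within hours of taking up water. Gibberellin and ethylene favour germination, abscisic acid (ABA) holds it back, and growth of the embryo needs loosened and newly made cell wall. ERF proteins, to which ZmEREB92 belongs, bind short GC-rich DNA elements called GCC boxes and can activate or repress the genes beside them.

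Totals of the 6 libraries ran from 12771663 to 15383586 counts (median 13532597). The limit that a count of 0 allows, 3 counts, equalled 0.192 to 0.288 CPM (counts scaled to library size by edgeR's TMM method), and it covers counting error only. KN5585_6h replicate 1 had counts on 23104 genes and stood apart from the other 5 libraries, which had 27689 or more. The sums of the seed markers overlapped between the genotypes at 6 HAI. The 40 globulin, oleosin and other oil-body genes, markers of embryo and aleurone, summed to 69100 to 84900 CPM in KN5585_6h and 26400 to 77800 CPM in *ereb92*_6h. The 22 zein genes of starchy endosperm summed to 24.6 to 112 CPM and to 11 to 87.7 CPM, and the part of tissue make-up in the results below was not tested.

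The transcript of the edited gene was not lower in the mutant. *ZmEREB92* (Zm00001d000339), which lies on an unplaced contig of the reference, was at 14.3, 4.89 and 35.9 CPM in KN5585_6h replicates 1, 2 and 3 and at 287, 200 and 65.5 CPM in the libraries labelled *ereb92*_6h. All of the latter lay above all of the former, but the log2 fold change of 3.33 (SE 0.795) did not pass edgeR's test (adjusted p = 0.104). DESeq2's Wald test, run as an alternative, gave an adjusted p of 0.000103. The lesion in *ereb92-6* is not given in the sources used here, and a small edit can leave the transcript countable, so this level does not check the labels. *ZmEF1a* (Zm00001d009870), an elongation factor gene used as a reference, was at 344 CPM in KN5585_6h and 314 CPM in *ereb92*_6h (means, n = 3), a log2 difference of -0.13 (SE 0.259), which turned to 0.01 with library size alone as the scaling.

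Differentially expressed genes (DEGs) had an adjusted p under 0.05 in edgeR's quasi-likelihood test and at least a 2-fold change. In *ereb92*_6h, 188 genes rose (0.815% of genes tested) and 33 fell (0.143%). Without adjustment, 1918 genes (8.32%) were higher and 689 (2.99%) lower at a p under 0.05 and the 2-fold limit, which is the unadjusted count used below. The 2 groups did not overlap for 3320 higher genes (14.4%) and 2436 lower ones (10.6%). The unadjusted counts varied with gene length. In the longest of 10 sets of genes by length (median 6845 bases), 75 were higher and 107 lower, with a median log2 fold change of -0.28. The next longest set had 157 and 86 (median -0.09), and the shortest had 203 and 79 (median 0.09). Class shares below are set against all genes regardless of length, and the part of length in them was not tested. The rises spanned a wide range, with 14 of 188 under 4-fold, 94 from 4-fold to 16-fold and 80 at 16-fold or more. The falls were fewer and steeper: 20 of the 33 were 16-fold or more. Transcripts at 0 counts in all 3 libraries of a group (28 of the 188 and 10 of the 33) entered these numbers at a lower bound set by 3 counts in each library. With those bounds the median log2 fold change was 3.47 among the genes that rose and -5.10 among those that fell.

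The calls sat close to the threshold, and 2 libraries decided whether there were any. The adjusted p of the 221 DEGs ran from 0.0197 to 0.0499, and the nearest gene past the fold limit that missed had 0.0505. Without KN5585_6h replicate 2 there were 0 DEGs, and without *ereb92*_6h replicate 2 there were also 0, although 2231 and 1714 genes were then higher at the unadjusted p and 704 and 665 were lower. Leaving out *ereb92*_6h replicate 1 left 5 and 1, leaving out KN5585_6h replicate 3 gave 509 and 63, and without KN5585_6h replicate 1, the library with few genes, 144 rose and 30 fell. DESeq2's Wald test called 1264 up-regulated (5.48%) and 265 down-regulated genes (1.15%). Some of these are genes said below not to pass, which refers to edgeR's test. In every one of these fits the 188 and the 33 genes kept their direction and at least a 2-fold change, with an unadjusted p under 0.05. They had been picked from these same libraries, and for all of them the groups did not overlap. Dropping 1 library could therefore hardly reverse a direction, and the refits are no separate check. Within *ereb92*_6h, replicate 1 was the highest library for 114 of the 188 genes and replicate 3 the lowest for 127, and within KN5585_6h replicate 1 was the lowest for 115.

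**Figure D1:**
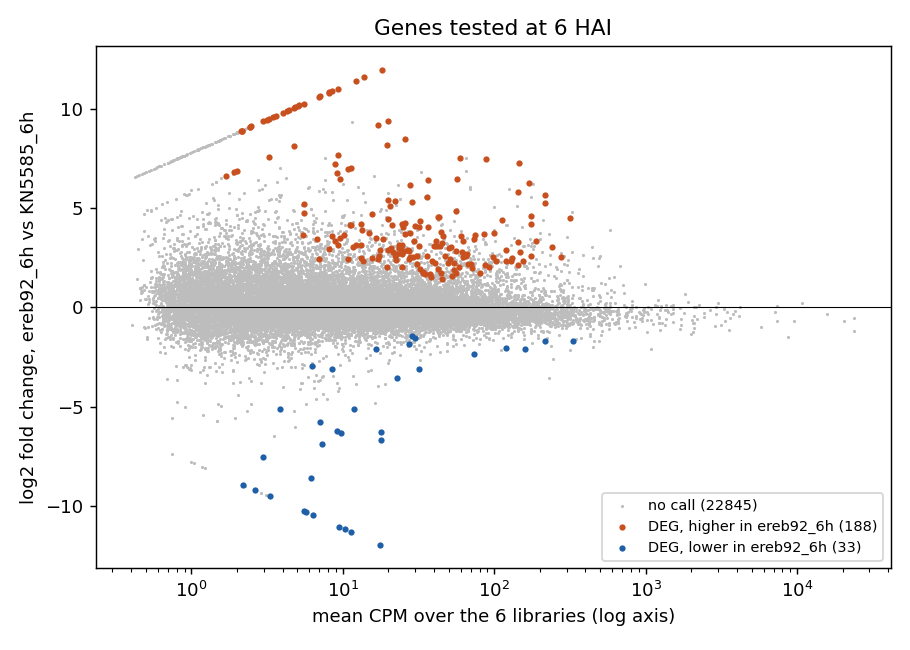
Each point is 1 of 23066 genes tested at 6 HAI, with its mean CPM over the 6 libraries on a log axis and the log2 fold change between genotypes (*ereb92*_6h over KN5585_6h). The 188 genes that rose are orange and the 33 that fell are blue, and most points along the outer diagonals are transcripts with 0 counts in 1 of the groups, and their fitted values are no bounds.

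Transcription factors of the AP2/ERF family, the family of ZmEREB92, were the description class with the largest share of genes higher at the unadjusted p. Cellulose synthesis had a larger share of DEGs (12.2% against 5.13%), and expansins and xyloglucan enzymes a larger share without overlap between the genotypes (46.7% against 41%). The 50 classes were built from words that occur in gene names and descriptions of the deposited table. Of 117 AP2/ERF and DREB factors tested, 6 rose and 0 fell, and 36 were higher at the unadjusted p (30.8%, against 8.32% of all genes) and 1 was lower. Their median log2 fold change was 0.91, against 0.00 over all genes, and -0.02 at 0 HAI. Leaving out single libraries moved the number of higher genes between 25 and 63.

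RAV1 (Zm00001d043782, chromosome 3), a factor with an AP2 and a B3 domain whose Arabidopsis relatives slow growth, had the strongest support of the 6. It was at 5.49, 10.5 and 17.1 CPM in KN5585_6h and at 610, 433 and 215 CPM in *ereb92*_6h. Every mutant library was more than 10 times above every wild-type library, and the mean was 38.1-fold higher (log2 fold change 5.25, SE 0.598, adjusted p = 0.0236). In dry seed the 6 libraries lay between 6.45 and 11.8 CPM and the genotypes overlapped.

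DREB1 (CBF) factors, which bind the dehydration-responsive element and drive the cold response in Arabidopsis and cereals, included 2 that rose among the 7 named by the study, a pair of neighbours on chromosome 2. The other 5 did not pass, although the genotypes did not overlap for any of the 7. The DREB3 gene Zm00001d006169 had 0 counts in each KN5585_6h library and 13.1, 49.7 and 45.1 CPM in *ereb92*_6h. It was at least 153-fold higher. *SbCBF6* (Zm00001d006170) was at 0, 0.619 and 3.36 CPM in KN5585_6h and at 171, 66.3 and 97.8 CPM in *ereb92*_6h, with no overlap (88.4-fold, adjusted p = 0.0485). Among the other DREB1 genes that the study names, the most abundant was Zm00001d021208 on chromosome 7. It was at 28.4, 17.2 and 173 CPM against 1580, 1040 and 633 CPM and did not pass (log2 fold change 3.9, SE 0.915, adjusted p = 0.0992). KN5585_6h replicate 3 held the highest wild-type value there, and it did so again in Zm00001d021207, at 38.8, 54.6 and 320 CPM against 1110, 773 and 396 CPM (adjusted p = 0.224). Zm00001d036003 and Zm00001d021205 had log2 differences of 2.83 and 5.93 and adjusted p of 0.198 and 0.0743, and Zm00001d002618 had 4.13 and 0.255. Of the ERF and DREB genes outside the DREB1 list, 3 more rose. RAP2-3 (Zm00001d018305), of the group that senses low oxygen in Arabidopsis, was 5.2-fold higher, a dehydration-responsive factor (Zm00001d026447) 12.7-fold and the AP2/EREBP gene Zm00001d052167 12-fold.

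Other factor families showed fewer calls. Among 71 WRKY factors, which are known from defense and from ABA signaling, 15 were higher at the unadjusted p (21.1%, against 8.32% of all genes). That number was 8 to 26 without single libraries. Of the 71, 0 were lower and 1 rose (Zm00001d050247, log2 fold change 2.6), a share of 1.41% against 0.815% of all genes. Of 83 bHLH factors 3 rose (3.61%) and 15 were higher at the unadjusted p (18.1%). The 3 were led by the phosphate-starvation factor Zm00001d045046 at 12.4 CPM in KN5585_6h and 159 CPM in *ereb92*_6h (means). Of 163 MYB factors 3 rose (1.84%) and 0 fell, and 19 were higher at the unadjusted p (11.7%). The 3 included relatives of MYB15 (Zm00001d032694, 2.42 on the log2 scale) and of MYB44 (Zm00001d015614, 4.11). The 70 NAC factors gave 0 DEGs, with 12 genes higher (17.1%) and 1 lower at the unadjusted p. The 113 homeobox factors gave 0 DEGs, with 5 higher (4.42%, below the 8.32% of all genes) and 3 lower. *naked endosperm2* (Zm00001d026113), an aleurone cell fate gene in maize, rose from 2.36, 4.2 and 3.46 CPM to 21.9, 15.7 and 17.3 CPM. It and other genes were named after their values were seen, as listed in the methods.

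Ethylene signaling and starch breakdown were the 2 processes that the study examined downstream of ZmEREB92. Gel-shift probes were designed by the study from the promoters of *ZmEIL7* (Zm00001d003451, chromosome 2) and *ZmAMYa2* (Zm00001d031794, chromosome 1). Of 5 such probes, 3 with overlapping copies of the core are printed, and pAMYa2-A and pAMYa2-B, with a single copy each, are not. All 5 carry the GCC-box core, GCCGCC on either strand (read as GGCGGC from the other side). In the 3 printed it is in capitals, with overlapping copies joined. For *ZmAMYa2* the study reports gel-shift binding to its A and C fragments, so a printed probe is not the same as a bound one. The share of all promoters with these letters was not analysed here.
pEIL7-A: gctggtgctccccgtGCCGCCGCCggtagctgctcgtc
pEIL7-B: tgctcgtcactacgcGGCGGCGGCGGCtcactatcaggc
pAMYa2-C: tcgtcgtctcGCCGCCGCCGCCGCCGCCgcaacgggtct

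*ZmEIL7*, a member of the EIN3-like family of ethylene signaling factors, was at 35.9, 98.9 and 146 CPM in KN5585_6h and at 260, 259 and 247 CPM in *ereb92*_6h. The groups did not overlap, the wild-type libraries varied widely, and the log2 difference of 1.45 (SE 0.468) did not pass (adjusted p = 0.205). *ZmAMYa2*, an α-amylase gene whose product breaks starch, was at 26, 3.37 and 4.32 CPM against 19.4, 52.3 and 16.6 CPM, and the groups overlapped. The ethylene receptor homolog2 gene (Zm00001d025050) had means of 25.6 and 168 CPM and an adjusted p of 0.0727. EIN3-binding F-box protein 1 (Zm00001d015778), which marks EIN3 for breakdown in Arabidopsis, was at 47.2 to 63.7 CPM and 97 to 170 CPM (log2 difference 1.22, adjusted p = 0.115). *EIN2* (Zm00001d033625), which carries the signal inward from the receptors, lay the other way, at 86.3, 46 and 36.5 CPM against 11.4, 20.5 and 20.9 CPM (log2 difference -1.68, adjusted p = 0.107). Over the 111 genes with an ethylene description, which include many ERF genes, 2 rose and 0 fell, both of them AP2/ERF factors named above, and 21 were higher and 2 lower at the unadjusted p (18.9% and 1.80%), with 13 to 38 higher without single libraries.

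In the ABA and gibberellin classes single genes stood out. ABA 8'-hydroxylase1 (Zm00001d017762), the enzyme that starts ABA breakdown, was at 4.1, 1.86 and 3.26 CPM in KN5585_6h and 89.2, 49.8 and 45.7 CPM in *ereb92*_6h (20-fold, adjusted p = 0.0197). The ABA receptor gene PYL5 (Zm00001d038436) was at 2.43, 0.688 and 1.06 CPM against 101, 29 and 38.4 CPM (39.7-fold). Every mutant library was more than 10 times above every wild-type library for both genes. These were 2 of 43 genes with an ABA description (4.65%, against 0.815% of all genes). Of the 43, 6 were higher (14%, against 8.32% of all genes) and 2 lower (4.65%, against 2.99%) at the unadjusted p. Gibberellin 2-oxidase6 (Zm00001d037724), which inactivates gibberellin, was at 6.75, 5.3 and 6.43 CPM against 67.2, 30.2 and 21.6 CPM (adjusted p = 0.0459), and 7 of the 26 genes of that class were higher and 0 lower at the unadjusted p (26.9%). Of 103 auxin genes 3 rose: GH3.6 (Zm00001d008957), which conjugates auxin, at 14.7-fold, a SAUR33 gene (Zm00001d032091) at 0 counts in KN5585_6h and at least 69.5-fold higher, and the auxin response factor ARF6 (Zm00001d003601) at 4.07-fold. The brassinosteroid, cytokinin and jasmonate classes held 0 DEGs among 32, 52 and 58 genes. At the unadjusted p, 6, 4 and 10 were higher (18.8%, 7.69% and 17.2%).

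**Figure D2:**
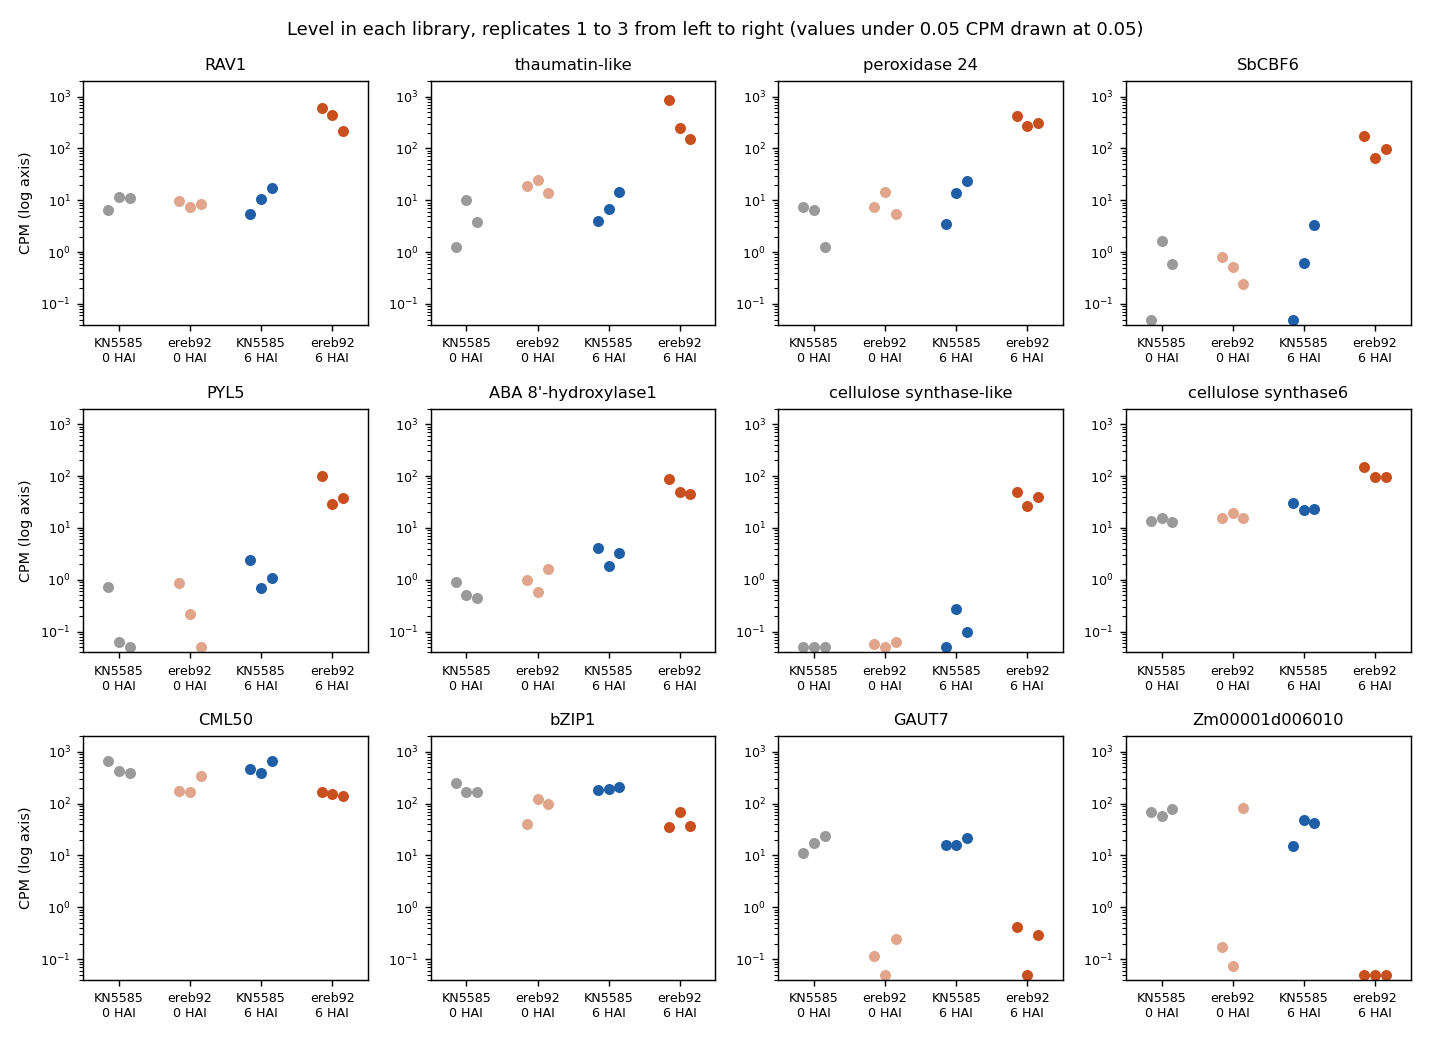
Level of 12 genes in each of the 12 libraries, in CPM on a log axis, with replicates 1 to 3 from left to right within a group. The 8 genes in the upper rows rose at 6 HAI and the 4 in the lower row fell. GAUT7 was near 0 in the mutant at both times, and Zm00001d006010 was near 0 in all mutant libraries except *ereb92*_0h replicate 3.

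Of the 3 cell wall classes, that of cellulose synthesis held most DEGs. Of 49 genes for cellulose synthases and related glucan synthases, 6 rose (12.2%, against 0.815% of all genes) and 0 fell, with 11 higher (22.4%) and 5 lower (10.2%) at the unadjusted p. Of the 6, 3 were cellulose synthases, the enzymes that spin cellulose at the cell surface. *Cellulose synthase6* (Zm00001d034770) was at 30.4, 22.1 and 22.8 CPM in KN5585_6h and 150, 97.6 and 96.2 CPM in *ereb92*_6h, *cellulose synthase8* (Zm00001d019317) was 3.85-fold higher and *cellulose synthase2* (Zm00001d037636) 7.28-fold. The others were cellulose synthase-like genes, of which 2 were nearly silent in the wild type. Zm00001d049510 had 0, 0.275 and 0.096 CPM against 50.3, 27 and 39.3 CPM, and Zm00001d024531 had 0, 0.0688 and 0.48 CPM against 20.6, 28.7 and 15.2 CPM. Per length, *cellulose synthase6* remained the most abundant of these 5 in *ereb92*_6h, with a mean of 22.1 FPKM against 5.04 to 12 FPKM for the other 4.

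Wall precursor and remodelling genes gave mixed results. UDP-glucose 6-dehydrogenase (Zm00001d013245), which makes UDP-glucuronic acid for pectin and xylan, was at 48.8, 53.3 and 57.3 CPM against 252, 241 and 214 CPM (4.43-fold, adjusted p = 0.0239). Expansins and xyloglucan enzymes are a word class that mixes genes that loosen the wall with genes that build xyloglucan. The class had 0 DEGs among 45 genes and a median log2 fold change of 1.33. At the unadjusted p, 12 were higher (26.7%) and 0 lower (8 to 21 higher without single libraries). The 12 include builders such as xyloglucan 6-xylosyltransferase 2 (Zm00001d028811) and the galactosyltransferase GT19 (Zm00001d029862), so the share is not that of wall-loosening enzymes alone. Also among the 12, a xyloglucan endotransglucosylase/hydrolase 14 gene (Zm00001d009309) was at 0, 1.51 and 13.2 CPM in KN5585_6h and 315, 473 and 271 CPM in *ereb92*_6h (adjusted p = 0.096). An expansin-A6 gene (Zm00001d012957) was at 8, 24.8 and 18.7 CPM against 64.3, 53.8 and 47.7 CPM (adjusted p = 0.11). Both sets of libraries lay apart without the test being passed. The pectin class held 1 gene of each direction, both galacturonosyltransferases: GAUT-like 9 (Zm00001d017984) rose by 3.08 and GAUT7 (Zm00001d009808) fell by 6.22 on the log2 scale.

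Cytoskeleton genes included a few of the sharpest contrasts. An actin-7 gene (Zm00001d032480) had 0, 2 and 0 counts in KN5585_6h and 776, 781 and 211 in *ereb92*_6h. Dry seed of either genotype had 2 to 23 counts. Both MAP65 genes named here, for proteins that bundle microtubules, rose: Zm00001d038174 from 0, 0 and 3 counts to 353, 229 and 218 counts and Zm00001d033794 from 0.556, 2.89 and 4.32 CPM to 65.4, 56.4 and 25.2 CPM. *Beta tubulin6* (Zm00001d012556) was higher in the mutant at both times, rising from 44, 19 and 0 counts in the wild type to 1227, 1165 and 726 at 6 HAI, and from 8, 14 and 10 to 2017, 863 and 1105 at 0 HAI. Members of such families are near-identical, and how reads that map to several places were counted is not stated, so a share of these counts may belong to a paralog. In all, 6 of 239 genes rose (2.51%, against 0.815% of all genes) and 0 fell. At the unadjusted p, 22 were higher (9.21%), near the 8.32% of all genes.

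Signaling, transport and stress genes followed. Of 297 receptor-like kinases and leucine-rich repeat proteins 3 rose (1.01%, near the 0.815% of all genes) and 56 were higher at the unadjusted p (18.9%, against 8.32% of all genes), or 36 to 92 without single libraries. FERONIA (Zm00001d029047), which senses the cell wall in Arabidopsis, was 6.02-fold higher. Of 186 calcium sensors and CIPK kinases 1 rose (0.538%, against 0.815% of all genes) and 1 fell (CML50, below). At the unadjusted p, 35 were higher (18.8%) and 3 lower (1.61%), with 22 to 44 higher without single libraries. The 1 that rose was the CIPK gene Zm00001d052340, at 16.8, 20.5 and 14.5 CPM against 64.5, 104 and 76.9 CPM. Of the 13 CIPK genes that the study names, 11 were tested and no other passed, and the next by adjusted p was Zm00001d038690 (log2 difference 2.6, adjusted p = 0.0804). All 11 were higher in *ereb92*_6h without overlap, as were 14.4% of all genes. The study had listed them as differentially expressed in these same data, so this is no separate check. Of plasma membrane pumps, a calcium ATPase (Zm00001d014166) rose by 6.39, another (Zm00001d028093) by 3 and an H+-ATPase (Zm00001d002006) by 3.03 on the log2 scale. The H+-ATPase was at 45.6, 46.9 and 64.1 CPM in KN5585_6h and 646, 422 and 207 CPM in *ereb92*_6h. A thaumatin-like pathogenesis-related gene (Zm00001d028400) was at 3.96, 6.88 and 14.3 CPM against 873, 247 and 154 CPM, and peroxidase 24 (Zm00001d040399) at 3.48, 14 and 23.8 CPM against 426, 272 and 304 CPM. *Hemoglobin1* (Zm00001d048020), an oxygen- and nitric-oxide-binding protein of low-oxygen tissue, had 0, 0 and 5 counts against 1328, 549 and 360. A hypoxia-responsive gene (Zm00001d036839) had 0, 23 and 7 counts against 1448, 697 and 268, and *hexokinase7* (Zm00001d037689) rose 6.05-fold. *Hexokinase7* was the only DEG among 112 glycolysis and fermentation genes (0.893%). Of these, 10 were higher at the unadjusted p (8.93%), and both shares were near those of all genes. UDP-glycosyltransferases, which attach sugars to hormones and other small molecules, gave 2 DEGs among 165 genes (1.21%) and 39 higher at the unadjusted p (23.6%), and cytochrome P450 genes gave 3 among 132 (2.27%) and 28 (21.2%), against 0.815% and 8.32% of all genes. Without single libraries the 39 became 29 to 58 and the 28 became 17 to 35.

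Ribosomal, translation, splicing and storage classes held few or no DEGs. Of 379 cytosolic ribosomal protein genes 0 were DEGs, 8 were higher (2.11%) and 10 lower at the unadjusted p, and the median log2 fold change was -0.27. The 161 translation factors had 1 DEG and the 132 splicing factors 0. There were 0 DEGs among 152 heat shock genes, 60 LEA and dehydrin genes, 31 oil-body genes and 8 zein genes. The 3 genes with most counts, metallothionein2 (Zm00001d029778), Oleosin Zm-I (Zm00001d002768) and Globulin-2 (Zm00001d034413), had log2 differences of -1.17, -0.67 and -0.56 and adjusted p-values of 0.422, 0.706 and 0.777. Genes of the mitochondrial genome had a median of -0.73 over 38 genes, with 0 higher and 3 lower at the unadjusted p. Relative to the all-gene median these 2 medians were -0.27 and -0.77 to -0.73 under the scalings run.

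Lipid breakdown, which feeds the growing embryo from oil reserves, was a reserve class with several DEGs: of 114 genes 4 rose (3.51%, against 0.815% of all genes) and 0 fell, and 14 were higher (12.3%) and 3 lower at the unadjusted p. A lipase gene (Zm00001d038167) was at 2.09, 3.3 and 3.84 CPM against 49.5, 22.4 and 28.8 CPM (10.9-fold). A peroxisomal 3-ketoacyl-CoA thiolase gene (Zm00001d049882), for the last step of fatty acid β-oxidation, was at 15.2, 6.47 and 8.42 CPM in the mutant and without a count in the wild type, a rise of at least 42.8-fold. Its dry-seed counts were 65, 120 and 27 in the mutant and 0 in each wild-type library (adjusted p = 0.0924). Another of the 4, Zm00001d042057, lies in the chromosome 3 stretch described below. In *ereb92*_0h it was above the KN5585_0h mean by 2.53, 3.9 and 0.19 on the log2 scale. The ABC transporter D1 gene that fell, also described below, is not in this word class.

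Starch enzymes other than amylases had the largest share of lower genes of any class, without a DEG. Of 22 such genes, 6 were lower (27.3%, against 2.99% of all genes) and 1 was higher at the unadjusted p, and the median was -0.76. All 6 encode starch-building enzymes: 5 starch synthases and a branching enzyme. The 1 higher gene (Zm00001d011301) encodes a starch-building enzyme too, starch branching enzyme III (log2 difference 1.59, adjusted p = 0.29). Starch synthase I (Zm00001d045261) was at 127, 86.3 and 88.3 CPM in KN5585_6h and 20.3, 30.1 and 55.4 CPM in *ereb92*_6h (log2 difference -1.51, SE 0.398, adjusted p = 0.13). Granule-bound starch synthase 1 (Zm00001d027242), which makes amylose, was at 199, 147 and 159 CPM against 49.7, 83.2 and 97.2 CPM (adjusted p = 0.15), and a starch synthase 2 gene (Zm00001d052263) at 6.47, 3.78 and 4.8 CPM against 0.968, 0.384 and 0.879 CPM (adjusted p = 0.111). The groups stood apart in each of these 3 genes, and without single libraries the count of lower genes was 2 to 6. Medians of the endosperm storage markers were below 0 as well. The zein class had medians of -0.92 at 6 HAI (8 genes, 0 lower at the unadjusted p) and -1.95 at 0 HAI (16 genes, 9 lower), and the summed zein level did not overlap in dry seed, at 125 to 558 CPM in KN5585_0h and 47.7 to 105 CPM in *ereb92*_0h. Their part in the starch values was not tested. The 15 α- and β-amylase genes gave 0 higher and 1 lower at the unadjusted p, with a median of 0.14.

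**Figure D3:**
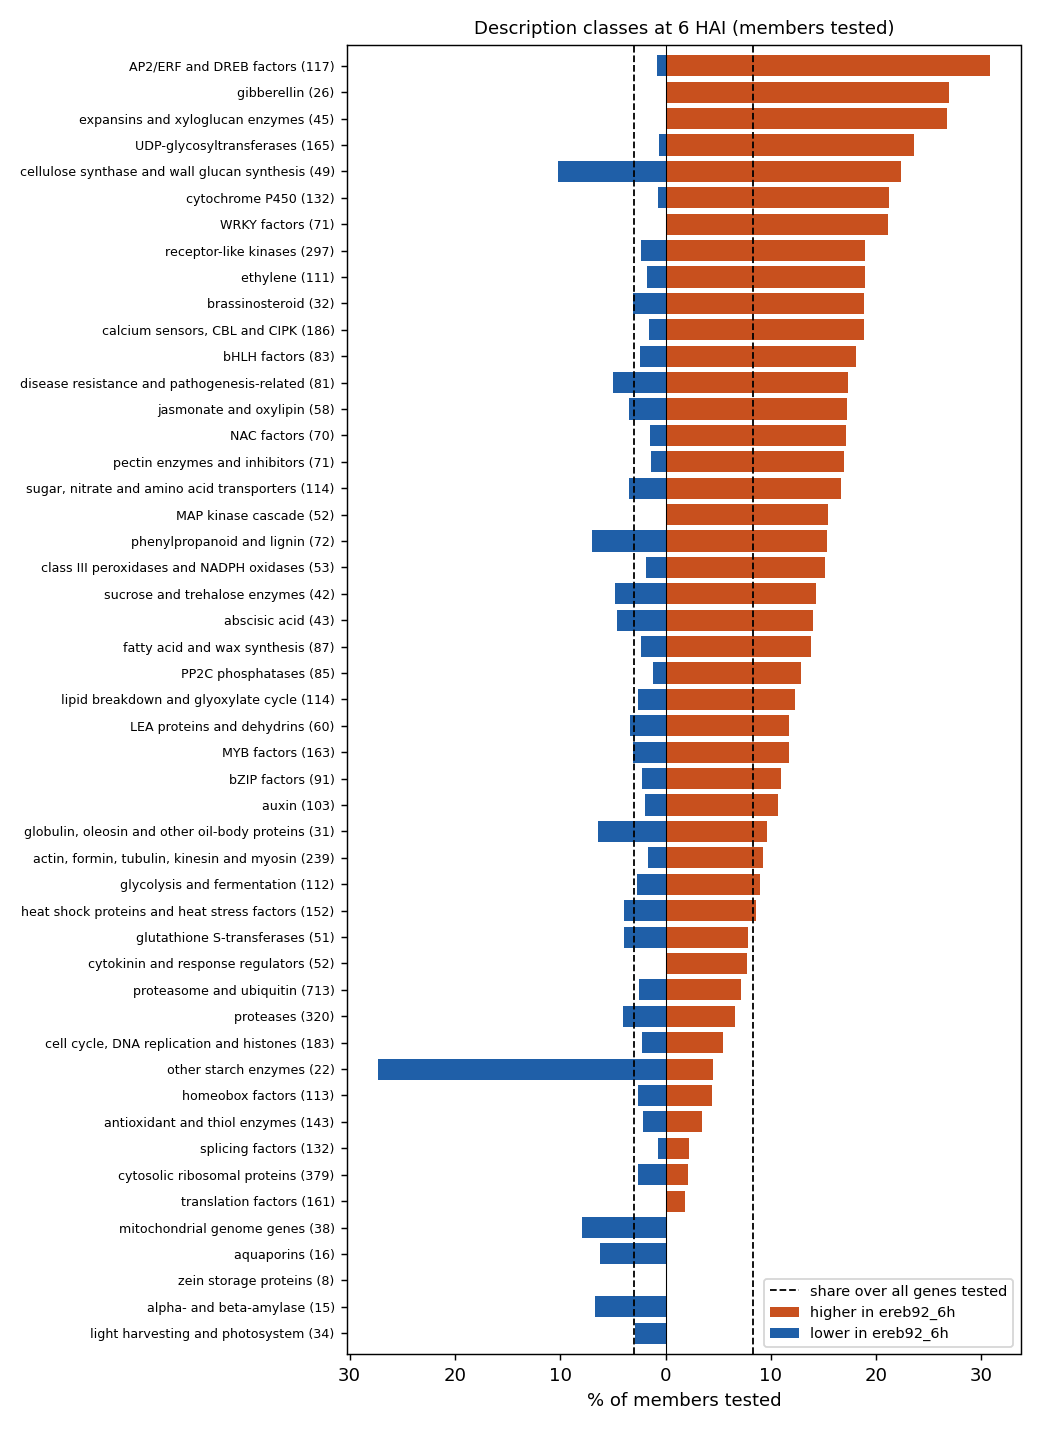
Share of each description class that was higher (orange, to the right) or lower (blue, to the left) in *ereb92*_6h at an unadjusted p under 0.05 with at least a 2-fold change, in percent of the members tested, whose number is in parentheses. Dashed lines mark the shares over all genes, 8.32% higher and 2.99% lower. AP2/ERF factors reached 30.8% higher and the starch enzymes 27.3% lower.

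The 33 genes that fell were mostly not members of known pathways. Of these, 16 were transcripts that the authors assembled, which have no gene model in the reference (48.5%, while such transcripts were 12.1% of genes tested and 13.8% of those that rose), 16 were annotated nuclear genes and 1 was a small nucleolar RNA. Words of retroelements or other transposons were in the descriptions of 5 of the 33 (15.2%), 7 of the 188 (3.72%) and 1.36% of all genes tested. Of the 33, 4 were members of any of the 50 classes, against 64 of the 188 and 5402 of the 23066 genes tested.

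The genes that fell included several of moderate change and high level. CML50 (Zm00001d052458), a calcium-binding protein gene, was at 462, 398 and 660 CPM in KN5585_6h and 165, 156 and 140 CPM in *ereb92*_6h (log2 fold change -1.72, SE 0.304, adjusted p = 0.0494). HVA22 (Zm00001d031773), an ABA-induced gene of aleurone in barley, was at 282, 288 and 423 CPM against 101, 99.7 and 108 CPM (-1.69). *bZIP transcription factor1* (Zm00001d043992) was at 185, 188 and 208 CPM against 35.9, 69.1 and 36.9 CPM (-2.03), and a glycine-rich domain gene (Zm00001d048802) at 393, 171 and 210 CPM against 48.9, 67.4 and 61.6 CPM (-2.12). In all 4 genes the mutant libraries lay below all wild-type libraries by more than 2-fold. A peroxisomal ABC transporter D1 gene (Zm00001d041996), whose Arabidopsis counterpart imports fatty acids for breakdown, fell by 2.12 on the log2 scale.

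Transcripts present in 1 genotype and nearly absent in the other made up much of the rest. With at most 3 counts in every library of a group and at least 30 in every library of the other, 12 transcripts were present in KN5585_6h alone and 52 in *ereb92*_6h alone. The former were all DEGs, 8 of them assembled by the authors and 7 on chromosome 2, and 36 of the latter were DEGs. The unnamed gene Zm00001d006010 on chromosome 2 was at 15, 49.3 and 41.8 CPM against 0 counts in all mutant libraries, at least 171-fold lower. On chromosome 2, 3 assembled transcripts lay close together, starting at 133457930, 133802017 and 133985205 (B73 RefGen_v4). They had 38 to 112, 206 to 334 and 122 to 198 counts in KN5585_6h and 0 in all mutant libraries at both times. AM3 (Zm00001d012613, chromosome 8), at 44, 177 and 187 counts against 0, 0 and 0, was at least 53.6-fold lower. GAUT7 had 231, 227 and 231 counts against 6, 0 and 4, and the mitochondrial electron transfer flavoprotein α gene (Zm00001d016533) had 181, 326 and 231 against 9, 1 and 0. A pair of assembled reverse transcriptase transcripts share the start 180761287 on chromosome 3, so they overlap and their 2 falls may be the same reads.

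The dry-seed libraries, which the 6 HAI test did not use, answered whether these differences were already there. All 31 of the 33 genes that could be tested at 0 HAI were lower in *ereb92*_0h (100%, while 51.1% of all genes tested were lower). The 2 groups did not overlap for 25 of them (8.08% of all genes), 20 passed the unadjusted p in that direction (3.26% of all genes) and 8 were DEGs at 0 HAI too (0.0973%), with a median log2 fold change of -2.25. Leaving out single dry-seed libraries gave 1 to 13 such DEGs, with 1 without KN5585_0h replicate 3 and 4 without KN5585_0h replicate 2, and at least 30 genes lower in each fit. The dry-seed counts of GAUT7 were 126, 269 and 310 in the wild type against 2, 0 and 4 in the mutant (log2 fold change -7.01, adjusted p = 0.0117). The 188 genes that rose were less alike at the 2 times. Of 148 tested at 0 HAI, 115 were higher (77.7%, against 48.9% of all genes), 34 of them without overlap (8.51% of all genes). At the unadjusted p, 32 were higher (2.68% of all genes) and 4 lower, and 12 were DEGs (0.168%), a number that became 3 without KN5585_0h replicate 2, 2 without KN5585_0h replicate 3 and 6 without *ereb92*_0h replicate 1 or 2. Of the 148, 104 differed by less than 2-fold and the median was 0.37. RAV1 and the 3 cellulose synthases were among the 104. The 12 shared DEGs included beta tubulin6, PGR5-like protein 1B (Zm00001d034900) and a DNA-directed RNA polymerase gene (Zm00001d048834), the last 2.88-fold higher at 6 HAI (18.4 to 21.3 against 52.1 to 63.9 CPM) with like levels in dry seed (15.4 to 16.4 against 46.9 to 72 CPM). CPM of the 2 times were scaled separately.

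**Figure D4:**
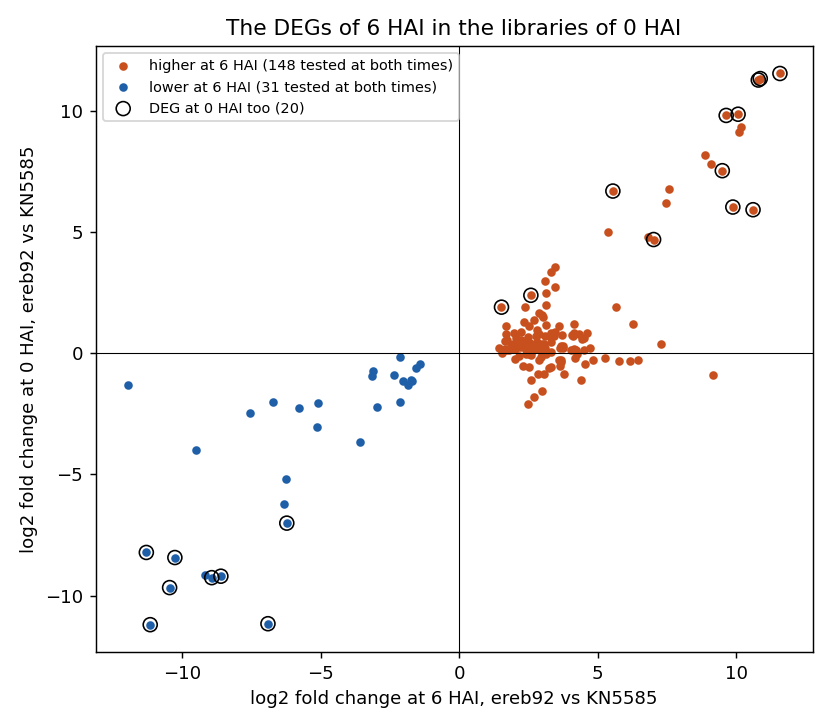
Log2 fold change of *ereb92* over KN5585 at 6 HAI (x axis) and at 0 HAI (y axis) for the DEGs of 6 HAI that could be tested at both times, 148 that rose in orange and 31 that fell in blue. The 20 circled genes were DEGs at 0 HAI too. All blue points lie below 0 on the y axis, and many orange points lie near it.

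The difference between the 2 times was tested for each gene as an interaction. It passed for 8 of 25567 genes (0.0313%), all with the larger difference at 6 HAI and all among the 188, RAV1, actin-7 and hexokinase7 among them. None of the 33 genes that fell passed. The 8 calls did not hold without single libraries: leaving out KN5585_0h replicate 1, KN5585_6h replicate 3 or *ereb92*_6h replicate 3 gave 13, 281 and 42 genes with the larger difference at 6 HAI, and leaving out any of the other 9 libraries gave 0.

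Neighbouring DEGs were frequent in a few stretches of the genome. In windows of 10 Mb, 5 of 216 windows held 5 or more DEGs (30 of the 217 on chromosomes) and 102 held 0. The 2 densest were on chromosome 2 at 200 to 210 Mb, with 8 DEGs among 177 genes tested (4.52%), and on chromosome 3 at 150 to 160 Mb, with 7 among 105 (6.67%). The share over all genes was 0.958%. Chromosomes 2 and 3 each held 9 of the 33 genes that fell, and chromosomes 7 and 9 held 0. The windows were chosen after these counts were seen, and no test was run on them.

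A dry mutant library stood apart from its group at many of these genes. On chromosome 3 from 140 to 160 Mb, 12 DEGs of 6 HAI lay together, 7 higher and 5 lower. At 0 HAI, *ereb92*_0h replicate 3 was within 2-fold of the KN5585_0h mean for 7 of the 12 while replicates 1 and 2 were more than 4-fold away in the direction of 6 HAI. A probable sarcosine oxidase gene (Zm00001d042035) is an example. Its dry-seed counts were 20, 36 and 16 in the wild type and 3629, 2398 and 16 in the mutant, and at 6 HAI they were 0, 15 and 21 against 3549, 2108 and 1981. An assembled transcript of a hAT transposon, starting at 157128090, showed the mirror image, with 260, 267 and 284 dry-seed counts in the wild type and 1, 0 and 246 in the mutant. Across all 221 DEGs, replicate 3 alone stood with the wild type for 16 genes (9 of them on chromosome 3), replicate 2 alone for 3 genes and replicate 1 alone for 0. Zm00001d006010 was 1 of the 16, at 3, 1 and 1327 counts in *ereb92*_0h, and an assembled transcript at 199489245 on chromosome 2 was 1 of the 3, at 447, 0 and 166 counts. Without *ereb92*_0h replicate 3, 32 of the 33 genes that fell could be tested at 0 HAI and all 32 were lower, 13 as DEGs, with a median of -5.58. Of the 188, 160 were then tested, 128 were higher and 18 were DEGs. At 6 HAI none of the 12 genes overlapped between the genotypes, which held for all 221 DEGs. This follows from how they were called and does not show whether the 6 HAI mutant libraries were alike in this stretch.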

How the data were processed

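The authors aligned reads to the maize genome B73 RefGen_v4 with HISAT2, counted them with featureCounts and deposited whole-number counts per gene, without normalization, and FPKM values (counts per gene length and library size), for annotated genes and transcripts they assembled. The submitters' processing notes also list mouse builds, which cannot belong to maize genes. The deposited columns of fold changes and p-values hold the authors' own DESeq2 comparisons and were not used. Strandedness and the treatment of multi-mapping reads are not given in the sources used here.

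The 6 libraries of 6 HAI were fitted alone in R 4.3.3 with edgeR 4.0.16 (limma 3.58.1): TMM factors, filterByExpr, glmQLFit and glmQLFTest, Benjamini-Hochberg adjustment over all genes tested. The 0 HAI libraries were fitted in the same way, and the interaction over all 12. CPM values use the TMM library sizes of each time, so levels at 0 and 6 HAI were scaled separately. DESeq2 1.42.0, other scalings, filters and fits, and leaving out each library were alternatives. Counts of 0 in a whole group were given a bound of 3 counts in each library. All per-sample columns belonged to the 12 libraries. The fits were tested on simulated counts with 200 changed genes. Replicate pairs differed by more than counting error.

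Genes were named by rule: ZmEREB92 and ZmEF1a, the 12 largest changes in each direction without overlap and with a mean FPKM of at least 1, up to 3 DEGs per class and direction by smallest p, the study's ethylene, amylase, DREB1, cellulose synthase and CIPK genes, and the 3 genes with most counts. Members, lists and classes were chosen with earlier results of these data known, and some word patterns were corrected after false matches were seen. Named after their values were seen were naked endosperm2, Zm00001d052167, UDP-glucose 6-dehydrogenase, the starch, expansin and xyloglucan genes, the pumps, MAP65-6, beta tubulin6, hemoglobin1, the hypoxia-responsive gene, HVA22, the glycine-rich domain gene, ABC transporter D1, electron transfer flavoprotein, PGR5-like 1B, the RNA polymerase gene and those given for the chromosome 3 stretch.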

Additional observations from a re-analysis of the deposited data

Results flagged for a closer look

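For 8 genes the genotype difference at 6 HAI was larger than that at 0 HAI by edgeR's test of the interaction. RAV1 (Zm00001d043782) differed by 5.53 on the log2 scale (SE 0.644, adjusted p = 0.0333), and all 3 *ereb92*_6h libraries exceeded the other 9. The actin-7 gene (Zm00001d032480) differed by 9.82 (SE 1.21, adjusted p = 0.0333), a fitted value that rests on 2 counts in KN5585_6h and is no bound. The differences were 3.07 for a protein-binding protein gene (Zm00001d021221), 4.14 for a RING-type zinc finger gene (Zm00001d032810), 3.8 for hexokinase7 (Zm00001d037689) and 4.62 for a membrane protein gene (Zm00001d029667), each with an adjusted p of 0.0458. They were 6.94 for a gene described as a long cell-linked locus protein (Zm00001d028838) and 5.24 for a gene described as a regulator of Vps4 activity (Zm00001d033714), with an adjusted p of 0.0485. The zinc finger gene had 181 to 302 counts in KN5585_6h, 2660 to 6461 in *ereb92*_6h and 93 to 303 over the 6 dry-seed libraries. Hexokinase7 leaned the other way in dry seed, at 14.5 to 18.4 CPM in the wild type and 4.77 to 9.14 CPM in the mutant. The 8 calls were lost when any 1 of 9 of the 12 libraries was left out.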

How the results depend on the processing

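At 6 HAI (188 up, 33 down), library size alone gave 456 up-regulated genes, no filter on low counts 804 and 100, DESeq2 1264 and 265, and a fit on all 12 libraries 752 and 113. Library size alone moved the median of all genes by 0.13 on the log2 scale and the share of higher genes at the unadjusted p from 73.6% to 83.8%. Leaving out 1 library gave 0 to 509 up-regulated and 0 to 63 down-regulated genes. At 0 HAI (38 and 22), no filter gave 129 and 94, DESeq2 269 and 276, the fit on all 12 libraries 21 and 14, and leaving out 1 library 3 to 106 and 1 to 105. For the interaction (8 and 0), no filter gave 105 and 1, DESeq2 353 and 14, library size alone 2, a mean CPM of at least 1 also 2, and leaving out 1 library 0 to 281 and 0 to 3. The cause was not tested. The replicate block gave 0 and 0 at 6 HAI (1590 and 493 at the unadjusted p), 1 and 0 at 0 HAI, and 0 for the interaction. Same-numbered libraries did not deviate together (r = -0.118 to -0.0513 at 6 HAI and -0.192 to -0.118 at 0 HAI). Whether they shared a seed lot or a day is not given in the sources used here, and these few values cannot decide it. Among named genes, ZmEF1a alone changed sign (-0.13, against 0.013 with library size alone and 0.022 without KN5585_6h replicate 3). All 188 and 33 genes kept direction and an unadjusted p under 0.05 in every fit run. They were picked from the same libraries, so this is no separate check. Counts of 3 or fewer per library (0.192 to 0.288 CPM) bound the lowest levels.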
